A study of Mus musculus with 21 samples.

Results

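The growth axis genes described here are *Ghrh*, *Sst*, *Ghr*, *Igf1*, *Sstr1*, *Sstr2*, *Sstr3* and *Gsx1*, chosen by gene symbol from the deposited table of read counts. All 8 symbols were found, each on 1 line, among 21654 genes. RNA-seq of the ventral hypothalamus (VH) was done on 21 libraries, each made from polyA RNA of brain punches from 2 mice, pooled equally. The mice were male C57BL/6J, 12 to 14 weeks old on arrival, and tissue was taken in the middle of the light phase after 3 hours of forced wakefulness. RC NoDS mice (n = 5 libraries) ate regular chow (RC) without a diet switch (DS), and HFD NoDS mice (n = 5) ate high-fat diet (HFD) without a DS. Each mouse was given its first diet on arrival and kept on it for 8 to 10 weeks. RC → HFD mice (n = 6) then went from RC to HFD for the last week, and HFD → RC mice (n = 5) from HFD to RC. Reads on genes summed to between 16380781 and 16390598 per library, because the authors had cut all libraries to 1 depth by random sampling of reads. Errors are the SD over the libraries of a group unless stated otherwise.

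Growth hormone is released by the pituitary in pulses set by the hypothalamus. GHRH from arcuate neurons stimulates release, and somatostatin, made by periventricular and other neurons, inhibits it through a family of G protein-coupled receptors. Growth hormone acts through its receptor and JAK2 on liver and other tissues to raise IGF1, and both hormones feed back on the hypothalamus and the pituitary.

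Markers of the arcuate, paraventricular and ventromedial nuclei were present in the punches. No markers of periventricular neurons were examined. All 9 arcuate markers were present, with *Pomc* the most abundant, and their summed level averaged 1476 ± 177 CPM (reads of a gene over the reads of its library adjusted by its TMM factor, scaled to a fixed total) in HFD NoDS, 1429 ± 188 in RC NoDS, 1386 ± 201 in RC → HFD and 1286 ± 217 in HFD → RC. The 5 paraventricular markers, led by *Avp*, summed to between 312 and 1918 CPM per library, and the 6 ventromedial markers, led by *Adcyap1*, to between 165 and 453 CPM. Pituitary markers were low and uneven. Of 9 such markers 8 had a line in the table, none at 0 in every library, and their sum ran from 3.05 CPM to 181 CPM with *Cga* the most abundant.

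Libraries also differed in how many weakly expressed genes they missed. Of the 3116 genes averaging 5 to 50 reads, the share with a count of 0 was 1.12% to 7.22% in the 5 RC NoDS libraries, 2.31% to 22.4% in RC → HFD, 5.68% to 31.9% in HFD → RC and 7.70% to 32.9% in HFD NoDS. The highest shares were in HFD NoDS replicate 20 and HFD → RC replicate 17.

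Apart from *Sstr3*, *Gsx1* and *Ghr*, which lay close together, the members differed more from each other than across the diets. Per kilobase of exon, *Sst* averaged 10858 ± 1632 reads (SD, n = 21 libraries), *Ghrh* 858 ± 196 and *Sstr1* 329 ± 52.2. *Sstr2* followed at 153 ± 29.1 reads per kilobase, *Sstr3* at 93.7 ± 21.4, *Gsx1* at 76.6 ± 25.9, *Ghr* at 64.2 ± 10.7 and *Igf1* at 2.04 ± 1.04. Along this order the steps from *Sstr3* to *Gsx1* and from *Gsx1* to *Ghr* were smaller than the SD between libraries. The other steps were larger. Group means of *Gsx1* ran from 65.8 reads per kilobase in HFD → RC to 92.4 in RC NoDS, a wider span than either small step. Those of *Ghr* ran from 57.1 in HFD NoDS to 75.3 in RC NoDS, wider than its step to *Gsx1*. By mean count *Sst* stood above 98.3% of all genes in the table. *Igf1* averaged 20.2 reads, with 1 to 38 per library, and the other 7 members averaged at least 50, the minimum for a gene to be tested across groups (12768 genes).

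**Figure D1:**
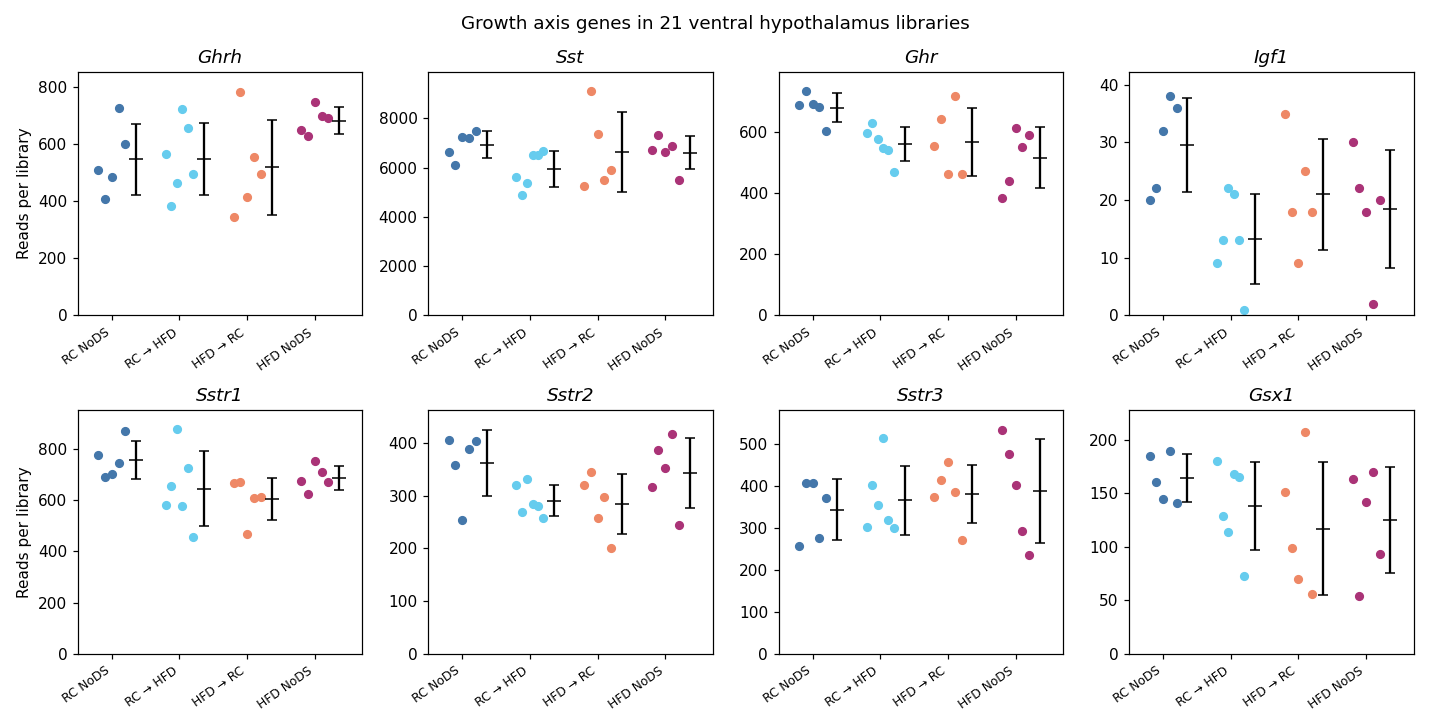
Reads per library (vertical axes, from 0) of the 8 growth axis genes in the 4 diet groups; each point is 1 library of 2 pooled mice, and the bars beside the points show the mean and SD. HFD NoDS libraries held 628 to 749 reads of Ghrh, within the span of 346 to 784 in HFD → RC, and RC NoDS held 691 to 874 reads of Sstr1, above the 469 to 673 of HFD → RC, although the scaled values of these groups overlap (41.2 and 41.4 CPM).

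*Ghrh* (ENSMUSG00000027643; mm9 chromosome 2, 157155233 to 157173242, minus strand) encodes the releasing hormone itself. RC NoDS libraries 1, 2, 3, 5 and 6 held 511, 408, 485, 729 and 601 reads of it, and HFD NoDS libraries 19, 20, 21, 23 and 24 held 649, 628, 749, 699 and 691. HFD → RC libraries 13 to 17 held 346, 784, 416, 554 and 496 reads, and the 6 RC → HFD libraries held 384 at the lowest, 531 at the median and 725 at the highest. All 5 HFD NoDS libraries were thus high and close together, whereas each other group spread from low to high counts and overlapped with them. Group means were 683 ± 47.1 reads in HFD NoDS, 549 ± 127 in RC → HFD, 547 ± 123 in RC NoDS and 519 ± 168 in HFD → RC, and the last 3 differed by less than their SD. *Ghrh* was higher in HFD NoDS than in HFD → RC by a log2 fold change of 0.39 (SE 0.181, 95% confidence interval 0.017 to 0.76), and 4 of the 5 HFD → RC libraries lay below every HFD NoDS library. Without HFD → RC replicate 14 it was 0.59, and an unadjusted p under 0.05 was kept in 15 of the 21 fits that left out 1 library. Without HFD NoDS replicate 20 and HFD → RC replicate 17 together the unadjusted edgeR p was 0.0644. With all 21 libraries the unadjusted edgeR p was under 0.05. The p adjusted over all genes tested, 0.617, did not pass the threshold of 0.15 used in the study. Against RC NoDS the log2 fold change in HFD NoDS was 0.34 (95% confidence interval −0.034 to 0.71, edgeR adjusted p = 0.683), or 0.15 with the share of weakly expressed genes at 0 as a covariate, and against RC → HFD it was 0.31 (−0.047 to 0.66, adjusted p = 0.715). In bulk tissue, fewer cells of a type and less RNA per cell cannot be told apart.

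*Sst* (ENSMUSG00000004366; chromosome 16, 23889667 to 23890930, minus strand) encodes somatostatin, which opposes GHRH at the pituitary. RC NoDS libraries, in the order given above, held 6637, 6125, 7228, 7194 and 7507 reads, and HFD NoDS libraries 6737, 7317, 6621, 6889 and 5517. HFD → RC libraries held 5263, 9124, 7359, 5504 and 5901 reads, and RC → HFD ran from 4904 through a median of 6082 to 6671. The highest count, in HFD → RC replicate 14, came from the library that was also highest for *Ghrh*, and all 4 groups overlapped. Means were 6938 ± 553 reads in RC NoDS, 6630 ± 1614 in HFD → RC, 6616 ± 669 in HFD NoDS and 5942 ± 735 in RC → HFD, and no neighbours in this order differed beyond the larger SD. For the step from RC NoDS to RC → HFD the log2 fold change was −0.20 (SE 0.112, 95% confidence interval −0.43 to 0.033, edgeR adjusted p = 0.825), and −0.30 with the share of weakly expressed genes at 0 as a covariate (adjusted p = 0.865). The unadjusted edgeR p was 0.0898 without that covariate and 0.0136 with it. Between the long-term diets the log2 fold change was −0.050 (95% confidence interval −0.29 to 0.19, edgeR adjusted p = 0.927).

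*Igf1* (ENSMUSG00000020053; chromosome 10, 87321010 to 87399792, plus strand) encodes the growth factor through which much of the action of growth hormone runs. RC NoDS libraries held 20, 22, 32, 38 and 36 reads, HFD → RC 35, 18, 9, 25 and 18, and HFD NoDS 30, 22, 18, 2 and 20, while RC → HFD ran from 1 through a median of 13 to 22. RC NoDS libraries sat at the upper end, and 2 of the 6 RC → HFD libraries reached the lowest RC NoDS counts. The means were 29.6 ± 8.17 reads in RC NoDS, 21.0 ± 9.67 in HFD → RC, 18.4 ± 10.2 in HFD NoDS and 13.2 ± 7.81 in RC → HFD (SD), with each step smaller than the larger SD. RC NoDS and RC → HFD, the ends of this order, differed by a mean of −16.4 reads (two-sided exact permutation p = 0.0195; 0.117 after adjustment over the 6 pairs of groups). The smallest p this test could give was 0.00216. For the other 5 pairs, exact permutation p ran from 0.0873 (RC NoDS v HFD NoDS) to 0.690. In an edgeR fit that took in all genes averaging at least 5 reads, the log2 fold change of *Igf1* between RC NoDS and RC → HFD was −1.14 (SE 0.645, 95% confidence interval −2.46 to 0.18, adjusted p = 0.958). *Gm16176*, a gene on the opposite strand, overlaps *Igf1* without sharing exon bases.

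*Ghr* (ENSMUSG00000055737; chromosome 15, 3267760 to 3533492, minus strand) encodes the growth hormone receptor, through which the hormone feeds back on the brain. RC NoDS libraries held 689, 736, 693, 683 and 606 reads, and HFD NoDS libraries 385, 439, 616, 553 and 590. HFD → RC libraries held 556, 643, 462, 719 and 465 reads, and RC → HFD ran from 469 through a median of 563 to 631. Most RC NoDS libraries were high, but all groups overlapped. The lowest of them, replicate 6, was exceeded by HFD NoDS replicate 21, by HFD → RC replicates 14 and 16 and by RC → HFD replicate 8, and HFD → RC replicate 16 exceeded 4 of the 5. Means were 681 ± 47.1 reads in RC NoDS, 569 ± 112 in HFD → RC, 561 ± 55.8 in RC → HFD and 517 ± 99.9 in HFD NoDS. The last 3 neighbours in this order differed by less than their SD.

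For *Ghr*, the log2 fold change from RC NoDS to HFD NoDS was −0.38 (SE 0.13, 95% confidence interval −0.65 to −0.12, edgeR adjusted p = 0.64), with the smallest unadjusted p of any tested member in any comparison. From RC NoDS to RC → HFD it was −0.25 (−0.51 to −0.00060, edgeR adjusted p = 0.765), with an unadjusted p just under 0.05 that 10 of 21 fits with 1 library left out kept. Across all 4 groups edgeR gave *Ghr* an adjusted p of 0.611. *Ghr* was also lower where the share of weakly expressed genes at 0 was higher, across the 21 libraries (r = −0.585, permutation p = 0.00525; rho = −0.564, permutation p = 0.00822; adjusted over 112 relations 0.0653 and 0.115), a share lowest in RC NoDS. The r was −0.412 after removal of group means and −0.408 without the 2 libraries farthest from the median. With that share as a covariate in edgeR the *Ghr* log2 fold change from RC NoDS to HFD NoDS was −0.26 with an unadjusted p above 0.05, and the part of the share in the difference was not tested further. In this pair, 7 of 8 other settings, all but the covariate, kept an unadjusted p under 0.05, as did all 21 fits that left out 1 library. Without HFD NoDS replicate 20 and HFD → RC replicate 17 together the unadjusted edgeR p was 0.0141. The oligodendrocyte genes *Mbp* and *Mobp* had log2 fold changes of 0.72 (SE 0.241) and 0.72 (SE 0.237) in the same pair, each with an edgeR adjusted p of 0.64. Against the whole oligodendrocyte list *Ghr* had rho = −0.526 (permutation p = 0.0153; adjusted over 112 relations 0.142) across the 21 libraries. Its r was −0.394 (permutation p = 0.0759; adjusted 0.283), −0.22 with group means removed and −0.654 without 2 libraries. The part of these genes in the *Ghr* difference was not tested.

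*Sstr1* (ENSMUSG00000035431; chromosome 12, 59312759 to 59315431, plus strand) encodes a somatostatin receptor and was the most abundant of the 3 receptors per kilobase. RC NoDS libraries held 779, 691, 702, 745 and 874 reads, HFD → RC 668, 673, 469, 608 and 615, and HFD NoDS 678, 625, 754, 713 and 672, while RC → HFD ran from 455 through a median of 620 to 879. Every RC NoDS library lay above every HFD → RC library, by 18 reads at the closest, and all other pairs of groups overlapped. Of all genes tested, 1.32% likewise had reads that did not overlap between RC NoDS and HFD → RC. After scaling the pair overlapped, with 41.2 CPM in RC NoDS replicate 2 and 41.4 CPM in HFD → RC replicate 14. Means were 758 ± 73.6 reads in RC NoDS, 688 ± 48.2 in HFD NoDS, 647 ± 146 in RC → HFD and 607 ± 82.4 in HFD → RC, with no step between neighbours beyond the larger SD. The log2 fold change from RC NoDS to HFD → RC was −0.30 (SE 0.13, 95% confidence interval −0.56 to −0.032, edgeR adjusted p = 0.554). With the share of weakly expressed genes at 0 as a covariate it was −0.24 and the unadjusted p was no longer under 0.05, nor was it without RC NoDS replicate 6 (−0.24) or HFD → RC replicate 15 (−0.22).

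*Sstr2* (ENSMUSG00000047904; chromosome 11, 113480656 to 113487319, plus strand), the receptor best known for restraining growth hormone release at the pituitary, showed counts of 405, 359, 254, 388 and 404 reads in RC NoDS, 320, 345, 257, 297 and 201 in HFD → RC, and 316, 386, 352, 418 and 245 in HFD NoDS. RC → HFD libraries ran from 258 through a median of 283 to 331. 4 of the RC NoDS libraries were high and replicate 3 was low, and every pair of groups overlapped. Means were 362 ± 63.2 reads in RC NoDS, 343 ± 66.9 in HFD NoDS, 291 ± 28.8 in RC → HFD and 284 ± 56.6 in HFD → RC (SD), with no step between neighbours beyond the larger SD. *Slc39a11*, on the opposite strand and averaging 521 reads, overlaps the gene without sharing exon bases.

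Both unswitched groups thus had higher means of *Sstr1* and *Sstr2* than both switched groups. The interaction asked whether the difference between current diets depended on the earlier diet, as the step from HFD → RC to HFD NoDS minus the step from RC NoDS to RC → HFD. It was 0.56 log2 units for *Sstr2* (SE 0.226, 95% confidence interval 0.095 to 1.02, edgeR adjusted p = 0.448) and 0.38 for *Sstr1* (SE 0.179, 0.014 to 0.75, edgeR adjusted p = 0.541). Both unadjusted p were under 0.05, and neither passed the threshold after adjustment. Without HFD NoDS replicate 20 and HFD → RC replicate 17 together the *Sstr2* interaction was 0.40, with an unadjusted p above 0.05, while each of the 21 fits that left out 1 library kept it under 0.05. For *Sstr1* 10 of those 21 kept it, and it was lost with the share of weakly expressed genes at 0 as a covariate (0.34). The summed tanycyte and ependyma markers, 7 of 7 present, had the same pattern, at 628 ± 86.9 CPM in RC NoDS and 646 ± 48.0 in HFD NoDS against 524 ± 77.2 in RC → HFD and 531 ± 73.7 in HFD → RC. Across the 21 libraries *Sstr1* had r = 0.617 with them (permutation p = 0.00254; rho = 0.608, permutation p = 0.00407; adjusted over 112 relations 0.0474 and 0.0651; r = 0.529 with group means removed and 0.566 without the 2 libraries farthest from the median). *Sstr2* had r = 0.553 (permutation p = 0.00961; rho = 0.618, permutation p = 0.00336; adjusted 0.0978 and 0.0627; r = 0.376 with group means removed and 0.497 without 2 libraries). General neuron markers, given below, ran the other way, with lower means in both unswitched groups. The part of these markers in the interaction was not tested.

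*Sstr3* (ENSMUSG00000044933; chromosome 15, 78367445 to 78374775, minus strand), a receptor found on neuronal cilia, ran from 235 to 532 reads, and both of these counts came from HFD NoDS. Its means, 343 ± 73.1 reads in RC NoDS, 365 ± 82.1 in RC → HFD, 379 ± 69.0 in HFD → RC and 387 ± 124 in HFD NoDS (SD), differed by less than the spread within each group. Its log2 fold changes over the 6 pairs of groups lay between 0.026 and 0.20, with edgeR adjusted p of 0.807 or more. These values moved with single libraries. The highest, from RC NoDS to HFD NoDS, was 0.054 without HFD NoDS replicate 19, 0.11 without HFD NoDS replicate 20 or RC NoDS replicate 1, and 0.34 without HFD NoDS replicate 24. From RC NoDS to HFD → RC it was 0.17, and it was 0.080 without RC NoDS replicate 1, 0.10 without RC NoDS replicate 5, and 0.090 and 0.27 when replicate 15 or 17 of HFD → RC was left out. The lowest, from HFD → RC to HFD NoDS, ran from −0.12 to 0.16 with 1 library left out.

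*Gsx1* (ENSMUSG00000053129; chromosome 5, 148000272 to 148002523, plus strand) encodes a homeodomain transcription factor that developing arcuate neurons need in order to make GHRH. It ranged from 54 to 207 reads, with means of 164 ± 22.4 in RC NoDS, 138 ± 41.0 in RC → HFD, 124 ± 49.6 in HFD NoDS and 117 ± 62.3 in HFD → RC (SD). The RC NoDS libraries, at 141 to 189 reads, all lay above the lowest counts of the other groups, 72 in RC → HFD replicate 12, 54 in HFD NoDS replicate 20 and 56 in HFD → RC replicate 17, but every pair of groups overlapped. In these 3 libraries the share of weakly expressed genes at 0 was 22.4%, 32.9% and 31.9%. Across the 21 libraries *Gsx1* was lower where that share was higher by r, at −0.561 (permutation p = 0.00803; rho = −0.297, permutation p = 0.19; adjusted over 112 relations 0.0899 and 0.435), with r of −0.449 with group means removed and −0.157 without the 2 libraries farthest from the median, on which it largely rests. The log2 fold change from RC NoDS to HFD → RC was −0.47 (95% confidence interval −1.12 to 0.19, edgeR adjusted p = 0.743). It was −0.77 with replicate 16 of HFD → RC left out, −0.29 with its replicate 17 left out and −0.10 with the share as a covariate, and the part of the share in it was not tested further.

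**Figure D2:**
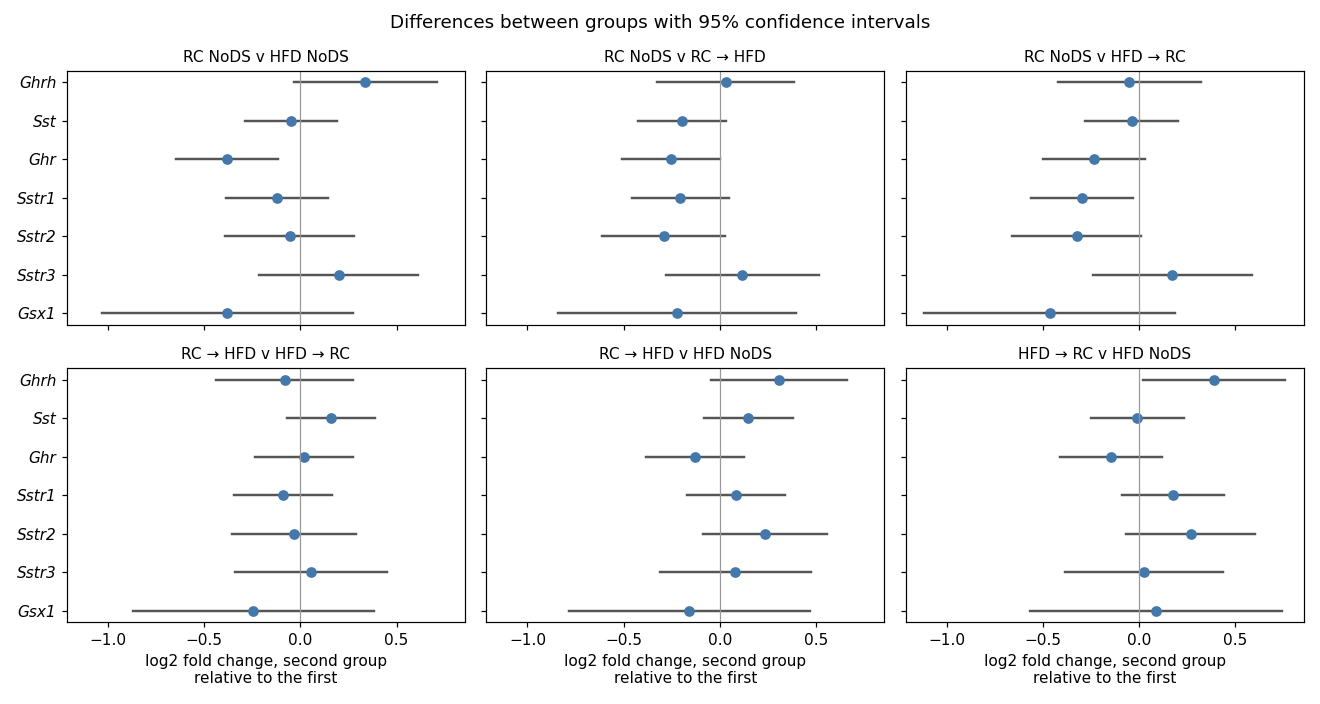
Log2 fold changes (horizontal axes) of the 7 growth axis genes tested, in the 6 pairs of groups, with points for the edgeR estimates and lines for 95% confidence intervals. The Ghr interval between RC NoDS and HFD NoDS, −0.65 to −0.12, is 1 of those that lie on a single side of 0, and Gsx1 has the widest intervals.

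Read together by comparison, the 7 tested members showed no call at the threshold of 0.15 in any setting tried. The long-term diets were compared first, RC NoDS v HFD NoDS, which sets a lasting HFD against lasting RC. EdgeR called 0 of 7 members there (0.0783% of all genes tested), 1 had an unadjusted p under 0.05 (7.41% of all genes), and 0 did not overlap between groups (0.893%). DESeq2 and limma-voom also called 0, with 1 and 2 members at an unadjusted p under 0.05. *Ghrh* and *Sstr3* had higher means in HFD NoDS and 5 members lower ones, with a median log2 fold change of −0.057 against 0.00645 over all genes. RC → HFD v HFD → RC compared mice that had switched in opposite directions. There edgeR called 0 of 7 (0.00783% of all genes), with 0 at an unadjusted p under 0.05 (5.35%) and 0 without overlap (0.486%). DESeq2 and limma-voom likewise called 0, with 0 at an unadjusted p under 0.05. Here 3 members were higher in HFD → RC, and the median was −0.033 against 0.000117 over all genes.

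A week of HFD after RC was seen in RC NoDS v RC → HFD. Of the 7 members edgeR called 0 (0.0392% of all genes), 1 had an unadjusted p under 0.05 (6.51%), 0 did not overlap (1.17%), and 2 were higher in RC → HFD. The median of −0.20 compared with −0.00094 over all genes. A week of RC after HFD was seen in HFD → RC v HFD NoDS, where edgeR called 0 (0.0705% of all genes), 1 member had an unadjusted p under 0.05 (7.93%), 0 did not overlap (1.02%), and 5 were higher in HFD NoDS, with a median of 0.086 against −0.00469. In both pairs DESeq2 and limma-voom called 0 and had 1 member at an unadjusted p under 0.05. These pairs share no library.

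Mice on RC at the end were compared by earlier diet in RC NoDS v HFD → RC. EdgeR called 0 of 7 members (0.282% of all genes), 1 member, *Sstr1*, had an unadjusted p under 0.05 (8.1%; 0 members with the share of genes at 0 as a covariate) and it alone did not overlap in reads (1.32%), although it did overlap in CPM. A single member was higher in HFD → RC, *Sstr3*, and the median was −0.24 against −0.000115 over all genes. Mice on HFD at the end were compared in RC → HFD v HFD NoDS, where edgeR called 0 (0.0157% of all genes), 0 had an unadjusted p under 0.05 (7.49%), 0 did not overlap (0.744%) and 5 were higher in HFD NoDS, with a median of 0.083 against −0.00115. DESeq2 and limma-voom called 0 in both pairs, with 1 member each at an unadjusted p under 0.05 in the former pair and 0 and 1 in the latter.

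Across all 4 groups edgeR called 0 of 7 (0.149% of all genes), and 1 member had an unadjusted p under 0.05 (7.97%). For the interaction edgeR called 0 (0.0313%), and 2 members had an unadjusted p under 0.05 (8.84%). The interaction was above 0 for 6 members, with a median of 0.31 (49.4% and −0.00398 over all genes). DESeq2 and limma-voom called 0 across all 4 groups and for the interaction, with the same numbers of members, 1 and 2, at an unadjusted p under 0.05. With the share of genes at 0 as a covariate these numbers were 0 and 2. The 2 interactions were then those of *Sstr2* (0.54) and *Ghrh* (0.52), and no longer that of *Sstr1*. Without the covariate the *Ghrh* interaction was 0.36, with an unadjusted p above 0.05, and it ran from 0.23 to 0.56 with 1 library left out. Without HFD NoDS replicate 20 and HFD → RC replicate 17 the numbers of members were 0 and 1, the latter being *Sstr1*. With 7 genes, 1 or 2 members at that level are too few to set apart from the share over all genes. Each group enters 3 of the 6 pairs, so these pairs share libraries.

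The other genes of the axis were taken from 3 lists of 67 genes, of which 57 averaged at least 50 reads. Hormones and receptors first: *Gh* itself, the pituitary product, had 0 to 4 reads in most libraries but 184 in RC NoDS replicate 6, 37 and 480 in RC → HFD replicates 10 and 12, and 2003 in HFD → RC replicate 13. Its group means therefore rest on single libraries, and in no pair did its edgeR adjusted p fall below 0.401. *Ghrhr*, the GHRH receptor, averaged 1.86 reads and *Cort*, a relative of somatostatin, 0.619 reads, all of the latter in 2 HFD → RC libraries. *Gh* and *Ghrhr* also belong to the pituitary markers. *Sstr4* averaged 153 reads and *Sstr5* 169, and *Igf1r*, the IGF1 receptor, averaged 448. *Igf2* averaged 1374 reads, with group means of 1868 ± 977 in RC NoDS, 878 ± 373 in RC → HFD, 1028 ± 869 in HFD → RC and 1820 ± 1179 in HFD NoDS (SD), and did not pass the test in any pair.

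*Ghsr* encodes the ghrelin receptor, which amplifies growth hormone release and is found on GHRH neurons. RC NoDS libraries held 300, 336, 323, 527 and 341 reads, and HFD NoDS libraries 161, 173, 158, 217 and 232. The 5 RC NoDS libraries all lay above the 5 HFD NoDS libraries, and above the 6 RC → HFD libraries at 139 to 272. Over all genes tested, 0.893% and 1.17% likewise did not overlap in these pairs. HFD → RC libraries held 209, 190, 156, 219 and 374 reads, and replicate 17 of these exceeded 4 of the 5 RC NoDS libraries (log2 fold change −0.65 from RC NoDS, edgeR adjusted p = 0.325). The log2 fold change from RC NoDS to HFD NoDS was −0.94 (SE 0.217, 95% confidence interval −1.39 to −0.50, edgeR adjusted p = 0.175), just short of the threshold. It passed with DESeq2 (adjusted p = 0.0227) and with the libraries of those groups alone (0.136). It did not pass with limma-voom (0.175), library-size scaling (0.168), genes averaging at least 5 reads (0.19), no filter (0.165) or the covariate (0.273). With the covariate the log2 fold change itself was larger, at −1.06. Of 21 fits that each left out 1 library, 3 passed and 18 did not. Those 3 were without replicate 12 of RC → HFD (0.12) and without replicate 15 (0.139) or 17 (0.0527) of HFD → RC, and the highest adjusted p were those without RC NoDS replicate 5 (0.55) and HFD NoDS replicate 19 (0.557). It also passed without HFD → RC replicate 17 and HFD NoDS replicate 20 together (0.115). From RC NoDS to RC → HFD it was −0.81 (edgeR adjusted p = 0.408). The part of *Mbp* and *Mobp*, given beside *Ghr*, in the *Ghsr* difference was not tested.

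Across the 3 lists, 1 gene passed in edgeR, *Isl1*, a LIM-homeodomain transcription factor of arcuate neurons. It fell from RC NoDS, with 927, 803, 706, 715 and 775 reads, to HFD → RC, with 503, 612, 406, 560 and 561, without overlap. The log2 fold change was −0.55 (SE 0.135, 95% confidence interval −0.82 to −0.27, edgeR adjusted p = 0.145). Of all genes tested, 1.32% likewise did not overlap in this pair, and edgeR called 0.282%. HFD NoDS libraries held 616, 622, 681, 909 and 783 reads, above every HFD → RC library (log2 fold change 0.44, adjusted p = 0.476). In that pair 1.02% of all genes did not overlap. The *Isl1* interaction was 0.84 (adjusted p = 0.176), which passed with DESeq2 (0.0237) and limma-voom (0.129). The call between RC NoDS and HFD → RC was close to the threshold. DESeq2 also made it (adjusted p = 0.039), and it held without a filter (0.148), with the libraries of both groups alone (0.127) and without HFD NoDS replicate 20 and HFD → RC replicate 17 (0.0818). It was lost with limma-voom (log2 fold change −0.55, adjusted p = 0.176), with library-size scaling (−0.57, 0.156), with genes averaging at least 5 reads (−0.55, 0.171) and with the share of genes at 0 as a covariate (−0.48, 0.675). Of 21 fits that each left out 1 library, 10 kept it and 11 lost it. Without RC NoDS replicates 1, 2 or 5 the adjusted p was 0.458, 0.266 and 0.292, and without RC → HFD replicates 7, 8 or 10 it was 0.185, 0.17 and 0.165. Without HFD → RC replicates 13, 14, 15 or 17 it was 0.331, 0.17, 0.359 and 0.165, and without HFD NoDS replicate 21 it was 0.162. Markers of another cell type differed in the same pair. *Mbp*, a gene of oligodendrocytes, had a log2 fold change of 1.04 from RC NoDS to HFD → RC (SE 0.242, edgeR adjusted p = 0.115), and *Mobp*, another, of 1.19 (SE 0.239, adjusted p = 0.0614). Their part in the differences of *Isl1* and *Sstr1* was not tested.

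By list, edgeR called 0 of 17 genes of ligands, receptors and carriers in each of the 8 comparisons, 0 of 19 genes of receptor signalling and, of 21 genes of GHRH and somatostatin neurons, *Isl1* alone in RC NoDS v HFD → RC. Over all genes edgeR called 0.282% in that pair and 0.00783% to 0.149% in the other comparisons. At an unadjusted p under 0.05 stood 8 of the 57 in RC NoDS v HFD NoDS, 5 in RC → HFD v HFD → RC, 9 in RC NoDS v RC → HFD, 14 in HFD → RC v HFD NoDS, 15 in RC NoDS v HFD → RC, 12 in RC → HFD v HFD NoDS, 18 across all 4 groups and 13 for the interaction, where the shares over all genes were the 5.35% to 8.84% given above. *Gh*, whose mean rests on single libraries, is 1 of those counted in HFD → RC v HFD NoDS, RC NoDS v HFD → RC and RC → HFD v HFD NoDS. It is also counted across all 4 groups and for the interaction, and nothing is read from its p there. Of the 57, 29 were higher in the second group in RC NoDS v HFD NoDS (median log2 fold change 0.029; 51.6% of all genes were higher, with a median of 0.00645) and 24 in RC → HFD v HFD → RC (−0.017; 50% and 0.000117 over all genes). In RC NoDS v RC → HFD 24 were higher (−0.065; 49.8% and −0.00094) and in RC → HFD v HFD NoDS 35 (0.057; 49.6% and −0.00115). In HFD → RC v HFD NoDS 39 were higher (0.098; 48.7% and −0.00469) and in RC NoDS v HFD → RC 18 (−0.11; 50% and −0.000115), and these 2 pairs share the HFD → RC libraries. For the interaction 39 of the 57 were above 0 (median 0.23; 49.4% and −0.00398 over all genes). DESeq2 called 2 of the 57 in RC NoDS v HFD NoDS, *Ghsr* and *Socs3* (0.133% of all genes by that tool), and both of these with *Isl1* across all 4 groups (1.04%). It called *Isl1* in RC NoDS v HFD → RC (1.15%), and *Isl1* and *Pcsk2*, a prohormone convertase, for the interaction (0.909%). It also called *Pcsk2* in RC NoDS v RC → HFD (log2 fold change 0.22, adjusted p = 0.0576; 0.752%) and *Slc32a1*, the vesicular GABA transporter, in HFD → RC v HFD NoDS (0.27, 0.141; 0.345%), and 0 in the other 2 pairs (0.0392% between the switched groups and 0.251% in RC → HFD v HFD NoDS). Limma-voom called *Isl1* for the interaction (0.117% of all genes by that tool) and 0 in each other comparison (0.00783% to 0.102%). Among signalling genes *Socs3*, which shuts off JAK2 signalling, had a log2 fold change of 0.79 from RC NoDS to HFD NoDS without overlap (edgeR adjusted p = 0.468; DESeq2 0.128). A lack of overlap was seen in 0.893% of all genes there. *Jak2* (−0.44), *Gal* (0.48) and *Sh2b1* (0.25) followed in that pair, tied at an edgeR adjusted p of 0.640. Between the switched groups the smallest adjusted p was that of *Grb14*, an adaptor of the insulin receptor (log2 fold change 0.43, edgeR adjusted p = 0.764). The homeodomain genes *Dlx1* (−0.30) and *Hmx3* (−0.53) followed at an adjusted p of 0.899, tied with *Slc32a1* (−0.17) and *Npy1r* (−0.36).

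Members were then compared with each other across the 21 libraries, in 28 pairs. *Ghrh* and *Sst* went together (r = 0.531, permutation p = 0.0136; rho = 0.451, permutation p = 0.0419; adjusted over the 28 pairs 0.0972 and 0.376), also with group means removed (r = 0.628), but less so without the 2 libraries farthest from the median (r = 0.34), so that it rests in part on these. *Ghr* and *Gsx1* had r = 0.564 (permutation p = 0.00776; rho = 0.465, permutation p = 0.0354; adjusted 0.0972 and 0.376), and r was 0.701 without 2 libraries and 0.504 with group means removed. *Sstr1* and *Sstr2* had r = 0.525 (permutation p = 0.0139; rho = 0.574, permutation p = 0.00706; adjusted 0.0972 and 0.198), and r was 0.463 without 2 libraries and 0.371 with group means removed. *Igf1* and *Sstr1* had r = 0.537 (permutation p = 0.0125; rho = 0.429, permutation p = 0.0537; adjusted 0.0972 and 0.376), and r was 0.506 without 2 libraries and 0.50 with group means removed. These 4 pairs had the smallest adjusted p. By rank no pair passed 0.15.

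The genes most like *Ghrh* over the 21 libraries, by Pearson r, were *Gpx3* (0.832), *Fam179a* (0.811), *Cebpb* (0.807), *Bsdc1* (0.794) and *Cited1* (0.781). Their r stayed between 0.681 and 0.786 without the 2 libraries farthest from the median, and between 0.766 and 0.839 with group means removed. *Sst* ranked behind 331 genes in likeness to *Ghrh*. Those most like *Sst* were *Pcsk1n* (0.821), *Otp* (0.781), *Lamb3* (0.766), *Gnb2* (0.756) and *Lsm4* (0.751), with r of 0.558 to 0.805 without 2 libraries and 0.752 to 0.895 with group means removed. *Otp*, a homeodomain factor of hypothalamic neuroendocrine neurons, is also in the list of GHRH and somatostatin neuron genes. These are descriptions of the highest values among 12768 genes.

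*Ghrh* followed the arcuate markers from library to library. Against the summed level of the 9 arcuate markers, which do not include it, r was 0.847 (permutation p = 3e-05) and rho 0.806 (permutation p = 5e-05), with 0.00336 and 0.00523 after adjustment over 112 relations of 8 members with 13 marker lists and the share of genes at 0. The r was 0.865 with group means removed and 0.764 without 2 libraries. The summed arcuate level was 1428, 1200, 1291, 1633 and 1595 CPM in RC NoDS, 1062, 1647, 1219, 1279 and 1223 in HFD → RC, and 1357, 1459, 1390, 1786 and 1389 in HFD NoDS, and ran from 1029 to 1567 in RC → HFD. The HFD → RC library with the highest *Ghrh* and *Sst*, replicate 14, had the highest arcuate level of its group, and replicate 13, with the lowest *Ghrh*, had the lowest. *Agrp*, *Npy* and *Cartpt*, 3 of the 9 markers, themselves passed the test between diet groups. The part of the arcuate markers in the *Ghrh* counts of the groups was not tested. For *Sst*, r was 0.606 (permutation p = 0.00368) and rho 0.534 (permutation p = 0.0131), with adjusted p of 0.0542 and 0.142, and r was 0.413 without 2 libraries, on which this relation rests in part. Against the microglia markers *Sst* had r = 0.602 (permutation p = 0.00387, adjusted 0.0542) and rho = 0.479 (permutation p = 0.0291, adjusted 0.159). That r was 0.701 with group means removed and 0.444 without 2 libraries. Against the paraventricular markers *Sst* had r = 0.453 (permutation p = 0.0387, adjusted 0.208), and 0.654 without 2 libraries.

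**Figure D3:**
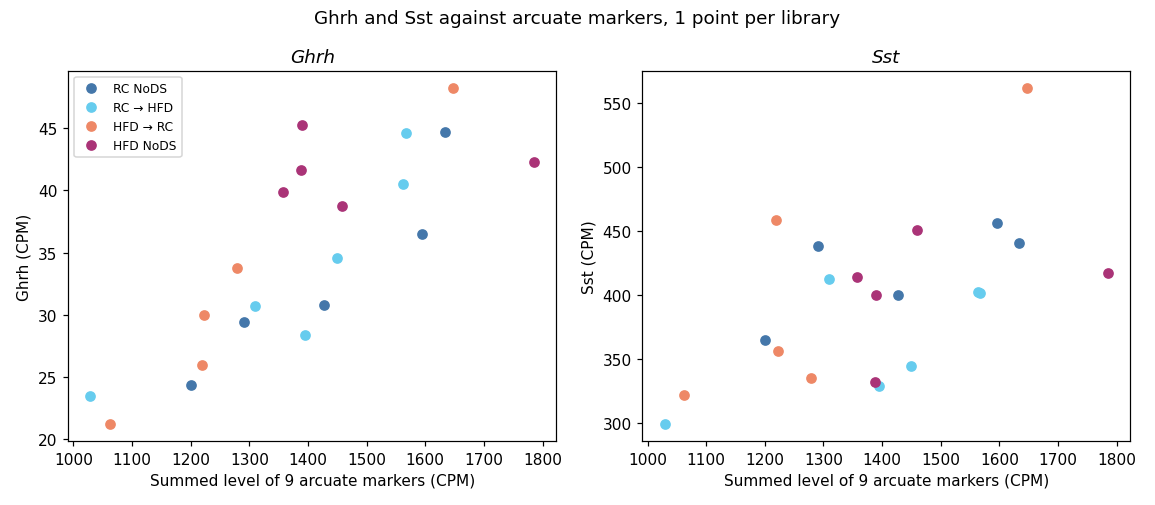
Ghrh (left) and Sst (right), in CPM on the vertical axes, against the summed level of 9 arcuate markers in CPM on the horizontal axes; each point is 1 of 21 libraries, coloured by diet group, and the axes do not start at 0. Libraries with more arcuate marker RNA held more Ghrh (r = 0.847), and the points for Sst are more scattered (r = 0.606).

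Other lists moved with members as well, and 13 of the 112 relations had adjusted p under 0.15 by both r and rho. *Ghrh* was higher where the 7 tanycyte and ependyma markers, of which *Col23a1* was the most abundant, were higher (r = 0.728, permutation p = 0.00031; rho = 0.752, permutation p = 0.00012; adjusted 0.0116 and 0.00523; r = 0.764 with group means removed and 0.706 without 2 libraries). *Sstr1* was lower where the 5 general neuron markers, led by *Snap25*, were higher (r = −0.763, permutation p = 0.00011; rho = −0.753, permutation p = 0.00014; adjusted 0.00616 and 0.00523; r = −0.676 with group means removed and −0.564 without 2 libraries). Against ventromedial markers *Sstr1* had r = −0.692 (permutation p = 0.0006; rho = −0.71, permutation p = 0.00041; adjusted 0.0168 and 0.0115) and *Sstr3* had r = 0.635 (permutation p = 0.00189; rho = 0.66, permutation p = 0.00159; adjusted 0.0423 and 0.0356), with r of −0.659 and 0.588 without 2 libraries. So *Sstr1* and *Sstr3* ran in opposite directions along the same markers. *Sstr2* went with the arcuate markers (r = 0.522, permutation p = 0.0156; rho = 0.549, permutation p = 0.0109; adjusted 0.124 and 0.136; r = 0.456 with group means removed and 0.60 without 2 libraries) and against the neuron markers (r = −0.501, permutation p = 0.0201; rho = −0.518, permutation p = 0.0172; adjusted 0.147 and 0.142; r = −0.309 and −0.419). *Ghrh* was lower where neuron markers were higher (r = −0.535, permutation p = 0.012; rho = −0.501, permutation p = 0.0215; adjusted 0.103 and 0.142; r = −0.627 and −0.496). *Gsx1* was lower where the 7 endothelial and mural markers, led by *Flt1*, were higher (r = −0.499, permutation p = 0.021; rho = −0.521, permutation p = 0.0174; adjusted 0.147 and 0.142; r = −0.52 and −0.476), at 179 ± 15.7 CPM in RC NoDS, 199 ± 5.03 in RC → HFD, 192 ± 15.5 in HFD → RC and 187 ± 8.99 in HFD NoDS. The summed neuron level averaged 1955 ± 107 CPM in RC NoDS, 2144 ± 129 in RC → HFD, 2156 ± 166 in HFD → RC and 2041 ± 116 in HFD NoDS (SD), the reverse of the order of *Sstr1* for its highest and lowest groups, and ventromedial levels averaged 237 ± 54.2, 307 ± 47.9, 315 ± 78.1 and 265 ± 90.7 CPM. Neuron levels of the single libraries were 2029, 2031, 2035, 1875 and 1807 CPM in RC NoDS and 2227, 1960, 2391, 2152 and 2051 CPM in HFD → RC, and overlapped. The part of these lists in the difference of *Sstr1* between RC NoDS and HFD → RC, and in the interactions of *Sstr1* and *Sstr2*, was not tested. Sums ran from 33.4 to 51.8 CPM for cortical or thalamic markers and from 60.0 to 83.6 CPM for choroid plexus markers. Lateral hypothalamus markers, led by *Nptx2*, averaged 158 ± 38.5 CPM in RC NoDS, 225 ± 32.1 in RC → HFD, 194 ± 33.9 in HFD → RC and 199 ± 54.8 in HFD NoDS. The 112 relations were chosen after values of the members had been seen.

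Promoters were read for 7 of the 8 members, in 10 entries from RefSeq on GRCm38.p6, a later build than the mm9 of the counts. *Sstr1* had no entry. Both strands of the 250 bases before each start were searched for TGACGTCA, the cAMP response element through which somatostatin transcription is known to respond to cAMP, and for TAATTA, a core bound by many homeodomain factors such as GSX1. The former was found in 508 of 32851 promoters of all genes (1.55%) and the latter in 1590 (4.84%), and the 2 do not overlap in the promoters shown. The cAMP response element stood 48 bases before the start of *Sst* and 58 bases before that of *Sstr2*, ligand and receptor alike. TAATTA stood 243 and 153 bases before the second start of *Ghrh*. Neither was in the other entries. The sequences are shown, 5′ to 3′ on the strand of the gene with the matches in capitals, because they hold the matches of a hormone, its receptor and the releasing hormone. A match describes letters and is not a site shown to work. *Sst* is at chr16:23890845-23890944 (minus strand), *Sstr2* at chr11:113619227-113619326 (plus strand) and *Ghrh* at chr2:157337427-157337676 (minus strand).
Sst: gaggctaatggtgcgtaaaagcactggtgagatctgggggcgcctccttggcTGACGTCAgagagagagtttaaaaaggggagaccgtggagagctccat
Sstr2: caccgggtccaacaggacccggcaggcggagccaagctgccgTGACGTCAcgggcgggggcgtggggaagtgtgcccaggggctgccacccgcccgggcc
Ghrh: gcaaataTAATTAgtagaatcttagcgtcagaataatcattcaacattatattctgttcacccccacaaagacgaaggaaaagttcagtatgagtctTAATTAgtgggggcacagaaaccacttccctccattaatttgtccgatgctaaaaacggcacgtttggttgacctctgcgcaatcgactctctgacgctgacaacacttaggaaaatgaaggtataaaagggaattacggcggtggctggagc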

How the data were processed

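The authors aligned reads to mm9 with STAR 2.5.1b, merged runs with Picard 2.7.1, counted reads on Ensembl gene models and re-sampled every library to 1 depth with PORT. The counts are those the authors deposited; how strand was used in counting is not stated. Coordinates and exon lengths are from the GENCODE annotation of mm9, a separate set from the gene models used for counting. Genes averaging at least 50 reads (12768) were normalized by TMM and tested with edgeR 4.0.16 (quasi-likelihood F-test) in R 4.3.3, fitting 4 group means to all 21 libraries, and Benjamini-Hochberg adjustment over all genes tested; the threshold was 0.15. Fold changes give the second group relative to the first. DESeq2 1.42.0, limma-voom (limma 3.58.1), other filters and scaling, a covariate and left-out libraries were tried. Relations used log2(CPM + 1) and 100000 permutations, two-sided, with 1e-05 the smallest p they can give (scipy 1.17.1, numpy 2.4.6 and pandas 2.3.3 under Python 3.11.15, with matplotlib 3.10.9 for figures). The code of the tests was run on simulated data with known changes.

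Named are all 8 members and, of the 3 lists, genes called in any comparison by edgeR, DESeq2 or limma-voom, the 3 with the smallest adjusted p by edgeR, ties included, in RC NoDS v HFD NoDS and in RC → HFD v HFD → RC, and *Gh*, *Ghrhr*, *Ghsr*, *Cort*, *Sstr4*, *Sstr5*, *Igf1r* and *Igf2* by role. Most alike are the 5 genes with the highest Pearson r. Members and lists were chosen with earlier results of these data known. Reads are not independent molecules, so every test rests on the spread between libraries. Summed levels of the oligodendrocyte markers are not reported here.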

Additional observations from a re-analysis of the deposited data

Results flagged for a closer look

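In 88 groups of libraries, of 22 genes in 4 diet groups, a library was set apart when its gap to the nearest other library was a large share of the range of its group, which chance gives in about 1 in 20 groups of normally spread values. No growth axis member had such a library. *Gh* had 184 reads in RC NoDS replicate 6, 480 in RC → HFD replicate 12 and 2003 in HFD → RC replicate 13, each the highest of its group. *Ghrhr* was highest with 1 read in RC NoDS replicate 1, 9 in RC → HFD replicate 11, 17 in HFD → RC replicate 17 and 8 in HFD NoDS replicate 24. In 3 of these groups (RC NoDS, RC → HFD and HFD NoDS) every other library had 0 reads, so that any count stands apart, and the rate of 1 in 20 does not hold for counts so near 0, as those of most *Gh* libraries also are. Nothing is read from the *Ghrhr* values. *Ghsr* stood highest with 527 reads in RC NoDS replicate 5 and 374 in HFD → RC replicate 17. *Igf1r* had 595 reads in RC → HFD replicate 10, and *Sstr5* had 342 in RC → HFD replicate 11.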

How the results depend on the processing

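Of 342 log2 fold changes of growth axis genes in pairs of groups under other settings, 9 changed sign and 333 did not, and no adjusted p was below 0.377. Of 882 with 1 library left out, 35 changed sign and 847 did not, and no adjusted p was below 0.318. The number of members called was 0 in all 62 counts under other settings and in all 168 with 1 library left out. The alternatives without HFD NoDS replicate 20 and HFD → RC replicate 17 (2 libraries left out), and all those for the 3 lists, *Isl1*, *Ghsr* and the interactions of single members, were chosen after seeing the data. No paired analysis was possible because each library pooled 2 mice of a single diet group and nothing in the sample labels links libraries of different groups. The share of genes at 0 limits what can be seen of genes with few reads.

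Signs changed for *Sst* (0.016) and *Sstr3* (−0.022) in HFD → RC v HFD NoDS with limma-voom, and for *Ghrh* (−0.11) and *Gsx1* (0.034) in RC NoDS v RC → HFD with the share of genes at 0 as a covariate. Without the 2 libraries they changed for *Sstr2* in RC → HFD v HFD → RC (0.070), *Sstr3* in HFD → RC v HFD NoDS (−0.17) and in RC → HFD v HFD NoDS (−0.010), *Gsx1* in RC → HFD v HFD NoDS (0.029) and *Sst* in RC NoDS v HFD → RC (0.00030).

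Numbers of genes called among all genes tested moved more. DESeq2 called 17 in RC NoDS v HFD NoDS, 5 in RC → HFD v HFD → RC, 96 in RC NoDS v RC → HFD, 44 in HFD → RC v HFD NoDS, 147 in RC NoDS v HFD → RC, 32 in RC → HFD v HFD NoDS, 133 across all 4 groups and 116 for the interaction. Limma-voom called 7 in RC NoDS v HFD → RC and 15 for the interaction, and library-size scaling 10 and 2. With genes averaging at least 5 reads, 2 were called in RC → HFD v HFD → RC, 4 in HFD → RC v HFD NoDS, 1 in RC → HFD v HFD NoDS and 0 for the interaction, and without a filter 3, 5 and 5 in these pairs and 31 across all 4 groups. With the libraries of the groups compared alone, 24 were called in RC NoDS v RC → HFD, 1 in HFD → RC v HFD NoDS and 4 in RC → HFD v HFD NoDS. With the covariate, 6 were called in RC NoDS v HFD NoDS, 15 in HFD → RC v HFD NoDS, 1 in RC NoDS v HFD → RC, 1 in RC → HFD v HFD NoDS, 9 across all 4 groups and 33 for the interaction. Without the 2 libraries, 2 were called in RC → HFD v HFD → RC, 15 in RC NoDS v RC → HFD, 3 in HFD → RC v HFD NoDS, 137 in RC NoDS v HFD → RC, 1 in RC → HFD v HFD NoDS, 45 across all 4 groups and 191 for the interaction.

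Of the 3 lists, DESeq2 called 2 genes in RC NoDS v HFD NoDS, 1 in RC NoDS v RC → HFD, 1 in HFD → RC v HFD NoDS, 3 across all 4 groups and 2 for the interaction. In RC NoDS v HFD → RC, limma-voom, library-size scaling, the lower filter and the covariate each called 0. Limma-voom and the covariate each called 1 for the interaction, and the libraries of the groups compared alone gave 1 in RC NoDS v HFD NoDS and 1 in RC NoDS v RC → HFD. Without the 2 libraries 1 was called in RC NoDS v HFD NoDS, 1 in RC NoDS v RC → HFD, 3 in RC NoDS v HFD → RC, 1 across all 4 groups and 2 for the interaction.

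With each library left out in turn, the genes called ran from 5 to 14 in RC NoDS v HFD NoDS, 1 to 41 in RC → HFD v HFD → RC, 4 to 11 in RC NoDS v RC → HFD, 1 to 13 in HFD → RC v HFD NoDS, 1 to 205 in RC NoDS v HFD → RC, 1 to 31 in RC → HFD v HFD NoDS, 9 to 80 across all 4 groups and 0 to 124 for the interaction. Of the 3 lists, 0 to 1 were called in RC NoDS v HFD NoDS, 0 to 4 in RC NoDS v HFD → RC, 0 to 1 across all 4 groups and 0 to 3 for the interaction. *Isl1* ran from −0.61 to −0.47 in RC NoDS v HFD → RC and *Ghsr* from −1.02 to −0.77 in RC NoDS v HFD NoDS. *Ghrh* ran from 0.28 to 0.59 in HFD → RC v HFD NoDS, −0.066 to 0.16 in RC NoDS v RC → HFD, −0.25 to 0.077 in RC NoDS v HFD → RC and −0.28 to 0.032 in RC → HFD v HFD → RC. *Sst* ran from −0.097 to 0.013 in RC NoDS v HFD NoDS, −0.19 to 0.031 in RC NoDS v HFD → RC and −0.080 to 0.14 in HFD → RC v HFD NoDS. In RC → HFD v HFD → RC, *Ghr* ran from −0.077 to 0.086, *Sstr1* from −0.17 to 0.013, *Sstr2* from −0.115 to 0.071 and *Sstr3* from −0.026 to 0.18. *Sstr2* ran from −0.16 to 0.046 in RC NoDS v HFD NoDS. *Sstr3* ran from 0.054 to 0.34 in RC NoDS v HFD NoDS, 0.080 to 0.27 in RC NoDS v HFD → RC, −0.0061 to 0.19 in RC NoDS v RC → HFD, −0.12 to 0.16 in HFD → RC v HFD NoDS and −0.062 to 0.22 in RC → HFD v HFD NoDS, and *Gsx1* from −0.77 to −0.29 in RC NoDS v HFD → RC, −0.091 to 0.39 in HFD → RC v HFD NoDS and −0.29 to 0.032 in RC → HFD v HFD NoDS. The cause of these changes was not tested.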
